A study of Mus musculus with 14 samples.

Results

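The iron and oxoglutarate dependent dioxygenases are enzymes that hold a ferrous iron in the active site and use molecular oxygen and oxoglutarate to hydroxylate or demethylate proteins, nucleic acids and small molecules. The 39 genes described here were chosen by function: prolyl and lysyl hydroxylases, histone demethylases and related proteins with a JmjC domain, nucleic acid demethylases, and enzymes of lipid and carnitine metabolism. All 39 were measured, among 18193 genes in all, and each was read from 1 probe set, the one that was brightest on average over the arrays. They comprised 4 hydroxylases that act on hypoxia-inducible factor (HIF), 6 collagen hydroxylases, 14 JmjC proteins, 9 nucleic acid demethylases and 6 metabolic or other enzymes.

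Iron reaches most cells bound to transferrin, which the transferrin receptor Tfr1 (gene symbol Tfrc) carries into the cell. Because these dioxygenases need iron and oxygen at the active site, they are known as a link between iron, oxygen and gene regulation: the HIF hydroxylases mark HIF alpha subunits for destruction or block their activity, and HIF in turn is known to switch on genes that include several dioxygenases themselves. Others remove methyl groups from histones, DNA or RNA, or hydroxylate collagen in the endoplasmic reticulum. The arrays measured messenger RNA and not the activity of any enzyme.

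The Tfr1-null mice lacked Tfr1 in dopaminergic neurons and the controls were heterozygous for the Tfr1 allele, so neither group was wild type. Ventral midbrains were taken at 3 weeks (4 Tfr1-null and 3 control libraries) and at 10 weeks (3 Tfr1-null and 4 control libraries), ages that the study design places early and late in the degeneration of these neurons. Every mouse was an F2 of 129Sv and C57BL/6 and also carried RiboTag, an epitope-tagged ribosomal protein with which messenger RNA on the ribosomes of the marked cells is immunoprecipitated from whole tissue. The driver of the deletion and the deleted exons are not given in the labels, input libraries were not analysed here, and nothing states that replicates were separate animals, so p-values measure the spread between these libraries, which may be technical. Values were log2 signals, with a median per array of 6.41 to 6.47 at 3 weeks and 7.36 to 7.43 at 10 weeks, so levels were compared within an age only.

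The targeted gene checked the labels. On the Tfrc probe set for the 5′ end of the transcript, Tfr1-null libraries 2 to 4 at 3 weeks read 7.13, 7.73 and 6.88, against 9.59, 9.50 and 9.56 in the controls, and the library labelled Tfr1-null 1 read 9.67. At 10 weeks the Tfr1-null libraries read 7.79, 8.34 and 9.29, against 10.15, 9.63 and 10.44 in controls 2 to 4, and the library labelled control 1 read 8.55. On the middle probe set, where Tfr1-null libraries are high, the library labelled Tfr1-null 1 at 3 weeks read 8.82 and the library labelled control 1 at 10 weeks read 11.43, against 8.80 to 8.86 in 3 week controls and 11.39 to 11.69 in 10 week Tfr1-null libraries. The Tfrc values of both libraries therefore went against their labels (the source field of the first also calls it a control), and each comparison was made with all 14 libraries and with the 12 that remain without them. Genes of the Y chromosome were read in 1 of 7 libraries at 3 weeks, control 2, and in 7 of 7 at 10 weeks.

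All 10 dopaminergic marker genes were measured and none lay under the 25th percentile of the arrays throughout a group. Their summed level over the 12 libraries was 15.92 to 16.00 in Tfr1-null libraries against 16.10 to 16.15 in controls at 3 weeks, and 16.57 to 16.83 against 16.96 to 17.02 at 10 weeks, when 3 of the 10 (Aldh1a1, Ddc and Drd2) fell and none rose. Of 3 GABAergic markers Slc32a1 alone rose at 10 weeks, with a summed level of 13.07 to 13.47 in Tfr1-null libraries against 12.73 to 13.02 in controls, and 12.13 to 12.43 against 11.94 to 12.13 at 3 weeks. No marker of astrocytes, microglia, oligodendrocytes, their precursors, vessels, fibroblasts or glutamatergic neurons passed the test at either age. At 10 weeks, though, median differences were 0.41 for 7 microglial markers, 0.38 for 6 astrocyte markers and 0.35 for 2 precursor markers. Their summed levels in Tfr1-null libraries against controls were 11.33 to 12.39 against 10.85 to 11.78 for microglia, 14.17 to 14.61 against 13.94 to 14.41 for astrocytes and 8.89 to 9.22 against 8.44 to 8.84 for precursors. The part of these shifts in the results below was not tested, and in such bulk samples fewer cells of a type and less RNA per cell cannot be told apart.

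With the 12 libraries, 13 of the 39 genes passed the test (limma, adjusted p under 0.05 over all genes) in at least 1 age. At 3 weeks 5 of 39 (12.8%) passed, against 1.84% of all genes: Egln1, Hif1an, P4ha2 and Kdm3a rose and Phyh fell. At 10 weeks 12 of 39 (30.8%) passed, against 11.1% of all genes: Egln1, P4ha2, Kdm2a, Kdm3a, Kdm4a, Kdm4b, Kdm5b, Jmjd6, Fto and Alkbh1 rose, and Alkbh7 and Phyh fell. The genes that rose were 4 of 39 at 3 weeks and 10 of 39 at 10 weeks, where 0.682% and 4.73% of all genes rose, and those that fell were 1 and 2, where 1.16% and 6.34% of all genes fell. Egln1, P4ha2, Kdm3a and Phyh passed at both ages, and 26 genes passed at neither.

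The result rested on which libraries were used. With all 14 libraries as labelled, 0 of 39 passed at 3 weeks (0% of all genes) and 1 of 39, Fto, passed at 10 weeks (1.21% of all genes). At an unadjusted p under 0.05 there were 7 and 12 members. Here and below, the share of all genes at that unadjusted cut was not counted, so such counts have no background. The library labelled Tfr1-null 1 at 3 weeks lay closer to the control mean than to the Tfr1-null mean in 5 of the 5 genes that passed at that age and in 30 of all 39. The library labelled control 1 at 10 weeks lay closer to the Tfr1-null mean in 11 of 12 genes that passed, Fto being the exception, and in 31 of all 39. Which mean these 2 libraries lay closer to was not counted over all genes, so these counts have no background either. With each age of the 12 libraries fitted alone, 9 members passed at 3 weeks, against 5.05% of all genes. At 10 weeks 2, P4ha2 and Phyh, kept their call, against 1.34% of all genes. The main fit pooled the spread of each gene over the ages. The median spread (SD) over all genes was 0.123 at 3 weeks and 0.217 at 10 weeks, and over members 0.157 and 0.292. Where a gene's spread was larger at 10 weeks, pooling understates it there and overstates it at 3 weeks. The part of this pooling in the counts of either age was not tested.

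**Figure D1:**
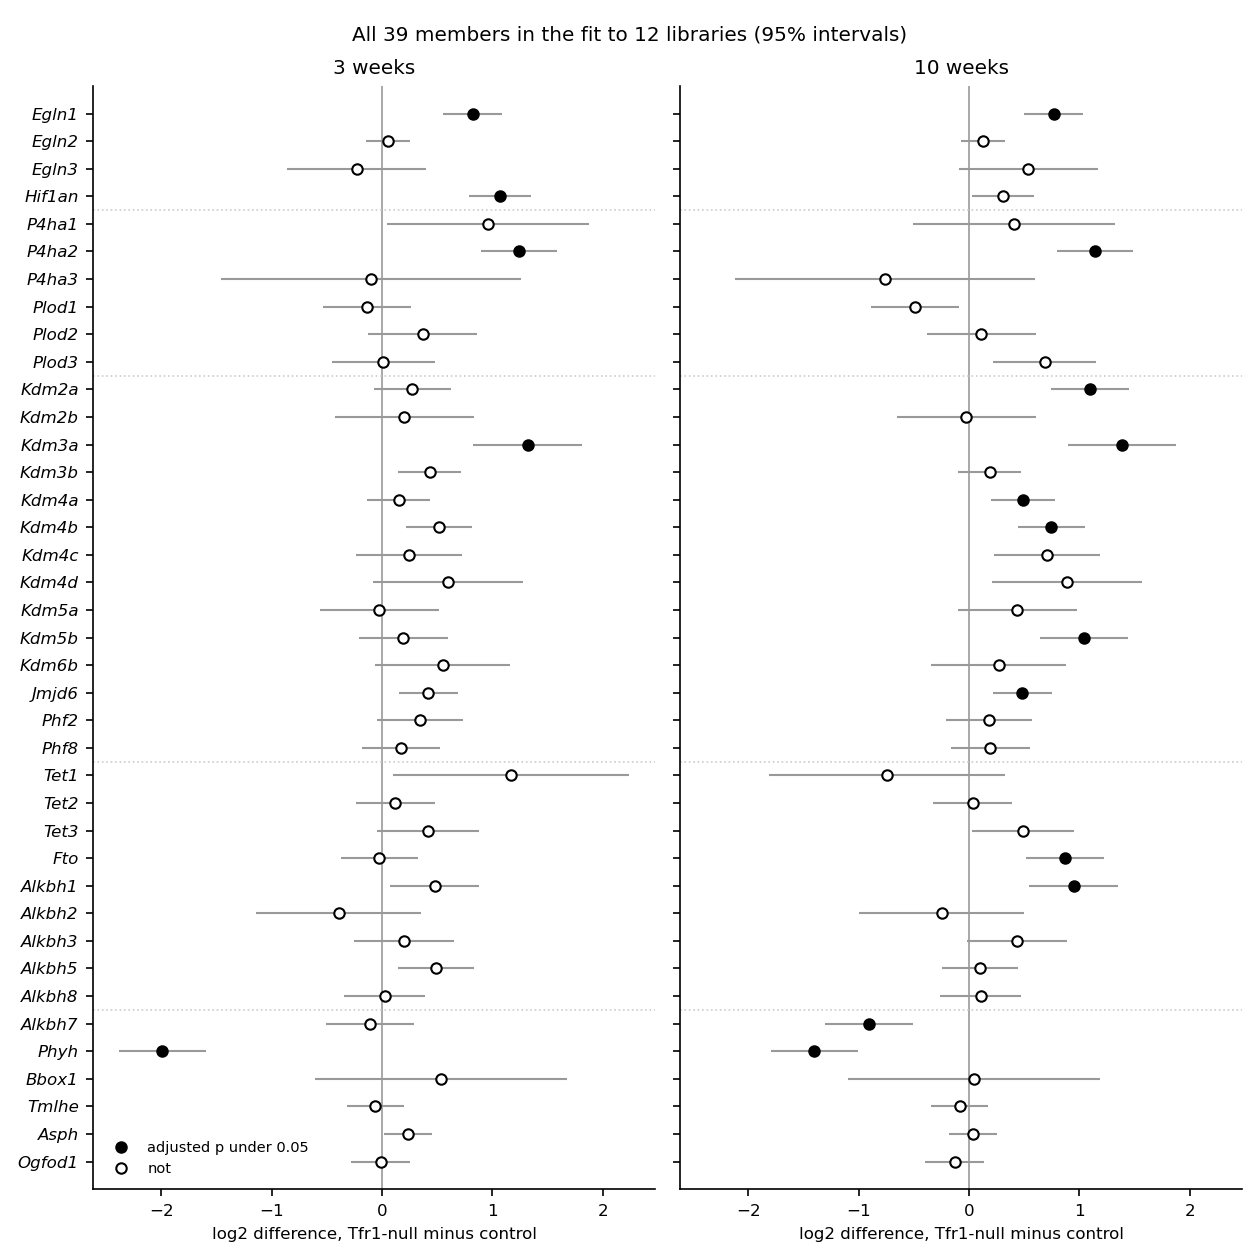
Log2 difference of Tfr1-null minus control for all 39 dioxygenase genes at 3 weeks (left) and 10 weeks (right) in the fit to 12 libraries, ordered by role, with 95% confidence intervals; filled points passed at an adjusted p under 0.05. The 14 JmjC genes (between the collagen hydroxylases and Tet1) lie mostly right of 0 at both ages, and Phyh lies far left at both.

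Beyond the genes that passed, differences leaned upwards in the fit to 12 libraries. At 3 weeks 29 of 39 genes (74.4%) had a positive difference, with a median of 0.24 on the log2 scale, where 53.6% of all genes were positive with a median of 0.01. At 10 weeks 30 of 39 (76.9%) were positive with a median of 0.27, where 47.8% of all genes were positive with a median of -0.01. The medians of the microglial, astrocyte and precursor markers at 10 weeks, 0.41, 0.38 and 0.35, were above that of the members, and their part in the lean was not tested. Among the 12 libraries, every Tfr1-null library lay above every control in 18 of 39 members at 3 weeks (13.3% of all genes) and in 13 at 10 weeks (9.87% of all genes). Among the same 12, every Tfr1-null library lay below every control in 1 member at 3 weeks (11.6% of all genes) and in 2 at 10 weeks (12.7% of all genes). With all 14 libraries the medians were 0.19 at both ages. Every Tfr1-null library then lay above every control in only 2 members at 3 weeks and 3 at 10 weeks, and below in 0 at either age. The share of all genes without overlap among 14 libraries was not counted.

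The 4 genes that passed at both ages are shown by the 250 bases before their RefSeq transcription start (build GRCm38.p6), because 3 of them, Egln1, P4ha2 and Kdm3a, are known as HIF targets and Phyh moved the other way. The bases run 5′ to 3′ on the gene's strand and end at the base before the start. Egln1 lies at chr8:124949255-124949504 (minus strand), Kdm3a at chr6:71632918-71633167 (minus strand, the most upstream of its 3 listed starts), P4ha2 at chr11:54100674-54100923 (plus strand) and Phyh at chr2:4918746-4918995 (plus strand). Capitals mark each match to the HIF core motif, searched as ACGTG or GCGTG on either strand (CACGT or CACGC when read on the other strand); a palindromic CACGTG would count on both strands.
Egln1: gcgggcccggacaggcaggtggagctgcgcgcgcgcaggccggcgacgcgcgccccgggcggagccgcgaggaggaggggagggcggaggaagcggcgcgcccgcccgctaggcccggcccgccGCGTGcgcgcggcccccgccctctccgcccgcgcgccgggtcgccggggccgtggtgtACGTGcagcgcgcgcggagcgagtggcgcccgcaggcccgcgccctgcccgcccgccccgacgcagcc
Kdm3a: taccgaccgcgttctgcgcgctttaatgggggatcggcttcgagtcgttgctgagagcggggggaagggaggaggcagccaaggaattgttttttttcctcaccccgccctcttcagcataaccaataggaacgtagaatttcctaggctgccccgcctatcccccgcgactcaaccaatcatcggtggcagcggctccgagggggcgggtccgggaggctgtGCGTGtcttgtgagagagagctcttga
P4ha2: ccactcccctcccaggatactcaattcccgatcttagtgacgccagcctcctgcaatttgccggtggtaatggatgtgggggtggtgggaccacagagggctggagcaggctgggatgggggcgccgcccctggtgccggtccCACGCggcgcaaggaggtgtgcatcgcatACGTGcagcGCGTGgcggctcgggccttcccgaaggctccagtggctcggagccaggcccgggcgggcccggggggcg
Phyh: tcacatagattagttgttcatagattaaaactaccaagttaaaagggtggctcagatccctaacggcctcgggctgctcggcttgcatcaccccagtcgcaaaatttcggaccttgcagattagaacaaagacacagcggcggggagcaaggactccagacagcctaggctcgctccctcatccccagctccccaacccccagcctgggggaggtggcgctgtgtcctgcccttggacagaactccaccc

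In these windows Egln1 held 2 matches, whose first bases lie at positions -126 and -68 from the start, P4ha2 held 3, at -107, -78 and -69, and Kdm3a held 1, at -27. The windows of the other 2 listed Kdm3a starts held 0. Phyh held 0. Promoters were listed for 31 of the 39 genes, of which 17 (54.8%) held the motif, where 41.5% of all 27025 genes with a listed promoter held it. The narrower ACGTG, on either strand, was in 12 of 31 (38.7%) and in 18.5% of all genes. Of the 11 genes that passed and had a promoter, 6 held the motif, a share close to the 17 of 31 over all members. Hif1an, Fto and Alkbh1 were among those without. A relation between the motif and the change was not tested. A match is a run of letters and not a shown binding site.

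The HIF hydroxylases come first. Egln1 (PHD2) is the main prolyl hydroxylase that marks HIF alpha subunits for destruction under normal oxygen. At 3 weeks Egln1 read 11.11, 11.14 and 11.18 in Tfr1-null libraries 2 to 4, against 10.28, 10.30 and 10.36 in the controls, with 10.24 in the library labelled Tfr1-null 1. At 10 weeks Egln1 read 11.67, 11.56 and 12.07 in Tfr1-null libraries, against 10.97, 10.97 and 11.06 in controls 2 to 4, with 11.69 in the library labelled control 1. The groups did not overlap at either age once those 2 libraries were set aside, and each of the 2 lay among or beside the other genotype. The difference in Egln1 was 0.82 ± 0.12 (SE) at 3 weeks (1.77-fold, adjusted p = 0.00453) and 0.77 ± 0.12 at 10 weeks (1.70-fold, adjusted p = 0.00318). With all 14 libraries it was 0.60 at both ages (adjusted p = 1.00 and 0.188).

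Hif1an (FIH) hydroxylates an asparagine of HIF alpha and so blocks its coactivators. Hif1an read 10.57, 10.49 and 10.26 in Tfr1-null libraries 2 to 4 at 3 weeks, against 9.18, 9.52 and 9.43 in the controls, with 9.48 in the library labelled Tfr1-null 1. Its difference was 1.07 ± 0.13 (2.09-fold, adjusted p = 0.00129), with no overlap. At 10 weeks Hif1an read 9.98, 10.14 and 10.35 in Tfr1-null libraries, against 9.87, 9.89 and 9.80 in controls 2 to 4, a difference of 0.31 that did not pass (adjusted p = 0.153). The change of Hif1an between the ages, -0.76, did not pass either (adjusted p = 0.137). Egln2 (PHD1), a related prolyl hydroxylase, differed by 0.05 at 3 weeks and 0.13 at 10 weeks, and Egln3 (PHD3), also known as a HIF target, by -0.23 and 0.54, and neither passed at either age (adjusted p from 0.264 to 0.964).

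The collagen hydroxylases comprise P4ha1, P4ha2 and P4ha3, the alternative catalytic subunits of collagen prolyl hydroxylase, and the lysyl hydroxylases Plod1, Plod2 and Plod3. P4ha2 rose at both ages, and it was the only one of the 6 to pass on its chosen probe set. At 3 weeks P4ha2 read 8.83, 8.52 and 8.67 in Tfr1-null libraries 2 to 4, against 7.57, 7.32 and 7.39 in the controls, with 7.40 in the library labelled Tfr1-null 1. At 10 weeks P4ha2 read 9.34, 9.57 and 9.40 in Tfr1-null libraries, against 8.01, 8.64 and 8.24 in controls 2 to 4, with 9.17 in the library labelled control 1. Neither age had an overlap among the 12 libraries. The difference in P4ha2 was 1.24 ± 0.16 at 3 weeks (2.37-fold, adjusted p = 0.00168) and 1.14 ± 0.16 at 10 weeks (2.20-fold, adjusted p = 0.00136).

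P4ha1, another known HIF target, differed by 0.96 at 3 weeks on the chosen probe set without passing (adjusted p = 0.436). Its values there were 11.07, 11.07 and 11.17 in Tfr1-null libraries 2 to 4, against 10.15, 9.98 and 10.30 in the controls. At 10 weeks they were 11.52, 11.15 and 11.57 in Tfr1-null libraries, against 10.44, 12.30 and 10.26 in controls 2 to 4, so 1 control stood above every Tfr1-null library. With the 3 week libraries fitted alone P4ha1 passed (adjusted p = 0.00302). The other P4ha1 probe set passed at both ages, with differences of 0.91 at 3 weeks (adjusted p = 0.0348) and 1.07 at 10 weeks (adjusted p = 0.00478, adjusted over all probe sets). P4ha3 and the 3 lysyl hydroxylases differed by -0.76 to 0.68 over both ages; the nearest to the threshold was Plod3 at 10 weeks (0.68, adjusted p = 0.0634). The -0.76 belonged to P4ha3 at 10 weeks, where control 2 read 10.55 and controls 3 and 4 read 7.67 and 7.62, against 7.57 to 8.26 in Tfr1-null libraries. Fibroblast and meningeal markers, of which Lum lay under the 25th percentile of the arrays throughout, summed to 9.43 to 9.93 in Tfr1-null libraries against 8.81 to 9.73 in controls at 3 weeks and 9.57 to 10.29 against 9.54 to 10.36 at 10 weeks; 0 of 5 passed.

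**Figure D2:**
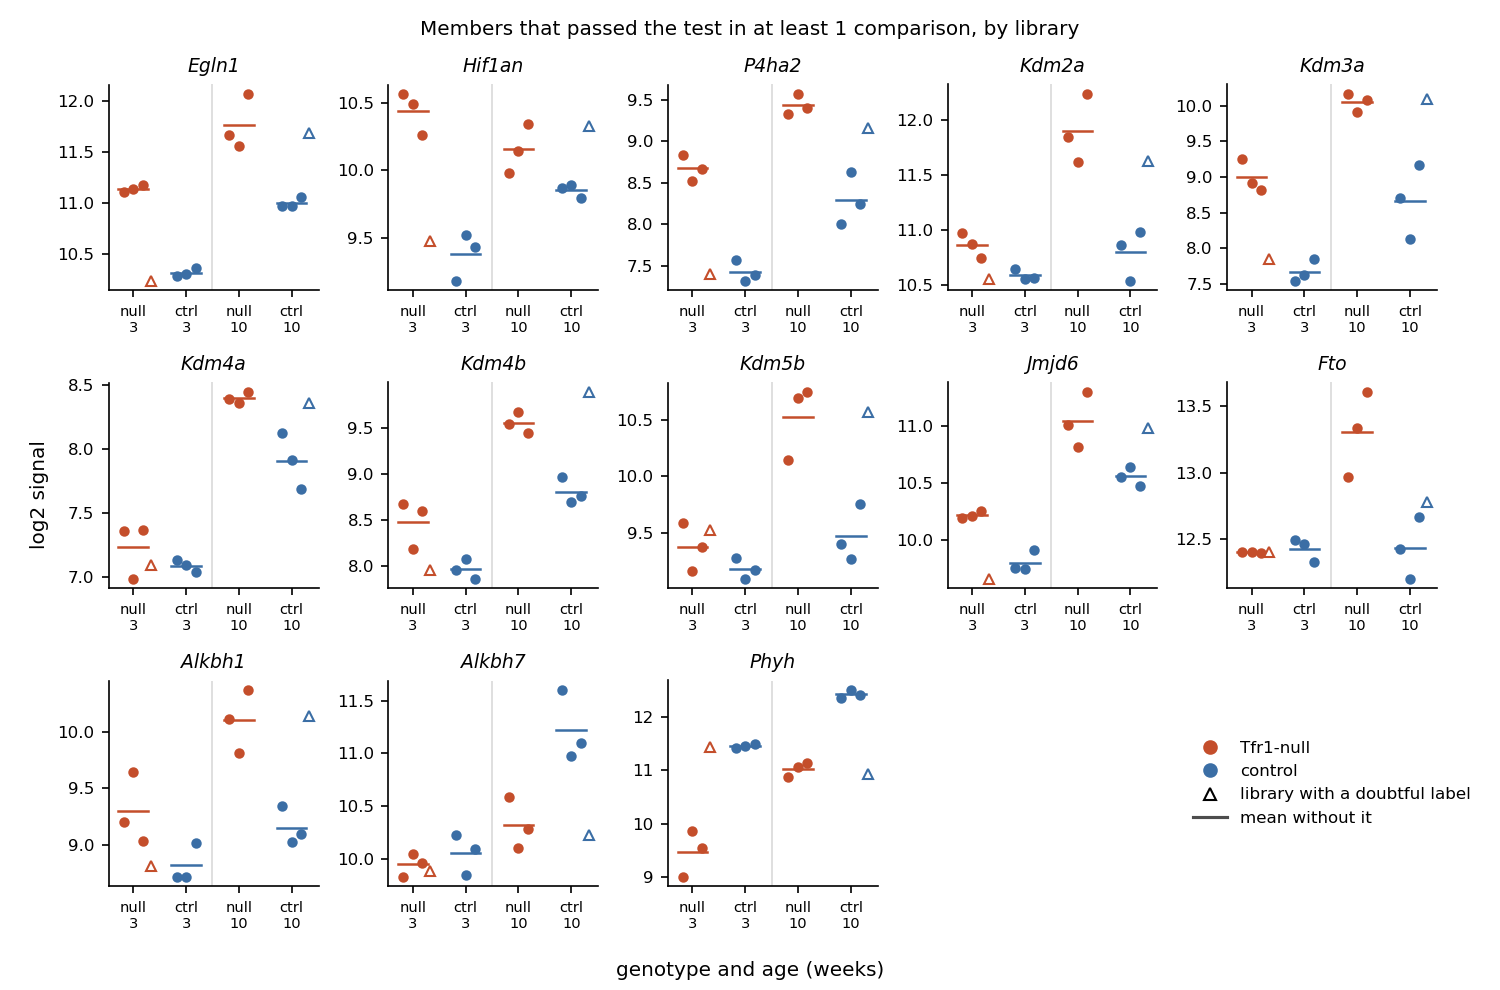
Log2 signal (vertical axis, own scale per gene) in every library for the 13 genes that passed in at least 1 age, by genotype (Tfr1-null left of control) and age in weeks; bars are means without the triangles, which mark the 2 libraries with doubtful labels. In Egln1, P4ha2, Kdm3a and Phyh both triangles sit nearer to the other genotype, as Phyh at 11.44 among 3 week controls at 11.43 to 11.49.

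Of the 14 JmjC proteins, 13 had a positive difference at each age (92.9%, where 53.6% of all genes were positive at 3 weeks and 47.8% at 10 weeks), with a median of 0.31 at 3 weeks and 0.49 at 10 weeks. At 3 weeks 1 of 14 (7.14%) rose, against 0.682% of all genes, and at 10 weeks 6 of 14 (42.9%) rose, against 4.73% of all genes. Kdm3a, which removes methyl groups from lysine 9 of histone H3 and is a known HIF target, passed at both ages. At 3 weeks Kdm3a read 9.25, 8.91 and 8.82 in Tfr1-null libraries 2 to 4, against 7.55, 7.63 and 7.85 in the controls, with 7.85 in the library labelled Tfr1-null 1. At 10 weeks Kdm3a read 10.17, 9.91 and 10.08 in Tfr1-null libraries, against 8.70, 8.13 and 9.17 in controls 2 to 4, with 10.10 in the library labelled control 1. The groups of 12 libraries were apart at both ages, and both excluded libraries lay at the level of the other genotype. The difference in Kdm3a was 1.32 ± 0.22 at 3 weeks (2.50-fold, adjusted p = 0.0105) and 1.39 ± 0.22 at 10 weeks (2.61-fold, adjusted p = 0.00354). When single libraries were left out, the 3 week call was lost without control 1 (adjusted p = 0.0614), control 2 (0.0555) or Tfr1-null 2 (0.0617), with differences of 1.26, 1.29 and 1.19.

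Kdm2a, a histone H3 demethylase that binds unmethylated CpG islands, passed at 10 weeks. Kdm2a read 11.84, 11.62 and 12.24 in Tfr1-null libraries at 10 weeks, against 10.87, 10.54 and 10.99 in controls 2 to 4, with 11.63 in the library labelled control 1. Its difference was 1.10 ± 0.16 (2.15-fold, adjusted p = 0.00205) at 10 weeks, and 0.28 at 3 weeks (adjusted p = 0.648). Kdm5b, which demethylates lysine 4 of histone H3, read 10.14, 10.69 and 10.74 in Tfr1-null libraries at 10 weeks, against 9.41, 9.27 and 9.76 in controls 2 to 4, with 10.57 in the library labelled control 1. The difference in Kdm5b was 1.04 ± 0.18 (2.06-fold, adjusted p = 0.00513) at 10 weeks and 0.19 at 3 weeks (adjusted p = 0.863). For neither gene did the difference between the ages pass, at 0.82 for Kdm2a (adjusted p = 0.182) and 0.85 for Kdm5b (adjusted p = 0.211).

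Kdm4a and Kdm4b demethylate trimethylated lysines of histone H3. Kdm4b read 9.54, 9.68 and 9.45 in Tfr1-null libraries at 10 weeks, against 8.96, 8.70 and 8.76 in controls 2 to 4, with 9.89 in the library labelled control 1. The difference in Kdm4b was 0.75 ± 0.14 (1.68-fold, adjusted p = 0.00698) at 10 weeks and 0.52 at 3 weeks, where it did not pass (adjusted p = 0.112) although no library overlapped. Without Tfr1-null 3 at 3 weeks the Kdm4b difference there was 0.67 and passed (adjusted p = 0.0287). Kdm4a read 8.39, 8.36 and 8.44 in Tfr1-null libraries at 10 weeks, against 8.13, 7.91 and 7.69 in controls 2 to 4, with 8.36 in the library labelled control 1. The difference in Kdm4a was 0.49 ± 0.13 (1.40-fold, adjusted p = 0.0366). That call was the least firm of the 12: it was lost without any 1 of control 1 (adjusted p = 0.0564), 2 (0.0592) or 3 (0.0555) or Tfr1-null 4 (0.0502) at 3 weeks, or of Tfr1-null 1 (0.0785), 2 (0.0613) or 3 (0.0902) or control 3 (0.0745) or 4 (0.0920) at 10 weeks, although its difference stayed between 0.38 and 0.51.

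Jmjd6, described as a lysyl hydroxylase of splicing factors, read 11.02, 10.81 and 11.30 in Tfr1-null libraries at 10 weeks, against 10.56, 10.64 and 10.48 in controls 2 to 4, with 10.98 in the library labelled control 1. The groups did not overlap, and the difference in Jmjd6 was 0.48 ± 0.12 (1.40-fold, adjusted p = 0.0276). Its call was lost without Tfr1-null 1 (adjusted p = 0.0573) or 3 (0.0658) or control 2 (0.0512) or 4 (0.0654) at 10 weeks. At 3 weeks Jmjd6 read 10.20, 10.21 and 10.26 in Tfr1-null libraries 2 to 4, against 9.75, 9.74 and 9.91 in the controls, a difference of 0.42 that did not pass (adjusted p = 0.148). The other 8 JmjC genes, Kdm2b, Kdm3b, Kdm4c, Kdm4d, Kdm5a, Kdm6b, Phf2 and Phf8, differed by -0.02 to 0.60 at 3 weeks and -0.02 to 0.89 at 10 weeks on their chosen probe sets and did not pass, nearest being Kdm4c at 10 weeks (0.71, adjusted p = 0.0617).

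Among nucleic acid demethylases 0 of 9 passed at 3 weeks, against 1.84% of all genes, and 3 had an unadjusted p under 0.05. At 10 weeks 2 of 9 (22.2%) passed, against 11.1% of all genes. Fto removes methyl groups from adenosines of RNA. At 10 weeks Fto read 12.97, 13.33 and 13.61 in Tfr1-null libraries, against 12.43, 12.20 and 12.67 in controls 2 to 4 and 12.78 in the library labelled control 1. On this chosen probe set every Tfr1-null library lay above every control, the doubtful one included. The other Fto probe set, above the 25th percentile of the arrays in all 14 libraries, did not rise at 10 weeks. It gave -0.08 with 12 libraries and -0.07 with 14 (adjusted p = 0.697 and 0.729, limma). The difference in Fto was 0.87 ± 0.16 with 12 libraries (1.83-fold, adjusted p = 0.00683) and 0.78 ± 0.15 with 14 (adjusted p = 0.0378), a call kept in 8 of 23 alternatives. At 3 weeks Fto read 12.41, 12.41 and 12.40 in Tfr1-null libraries 2 to 4, against 12.49, 12.46 and 12.33 in the controls, a difference of -0.02. The difference between the ages for Fto, 0.89, did not pass (adjusted p = 0.166).

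Alkbh1, which demethylates transfer RNA and is also found in mitochondria, read 10.12, 9.82 and 10.37 in Tfr1-null libraries at 10 weeks, against 9.34, 9.02 and 9.10 in controls 2 to 4, with 10.14 in the library labelled control 1. The difference in Alkbh1 was 0.95 ± 0.18 (1.93-fold, adjusted p = 0.00916) at 10 weeks and 0.48 at 3 weeks (adjusted p = 0.344). Tet1, Tet2 and Tet3 oxidize methylated cytosine in DNA. Tet1 differed in opposite directions, by 1.17 at 3 weeks and -0.74 at 10 weeks, and neither passed (adjusted p = 0.401 and 0.373). That opposition rested on the chosen probe set: the other 3 Tet1 probe sets gave 0.64 to 1.27 at 3 weeks and 0.03 to 0.30 at 10 weeks, and none of them passed. With the 3 week libraries fitted alone Tet1 passed at that age (adjusted p = 0.0490). The Tet1 values at 10 weeks ran from 5.59 to 7.86 in Tfr1-null libraries, against 7.32 to 8.13 in controls 2 to 4. The DNA repair enzymes Alkbh2 and Alkbh3, the RNA demethylase Alkbh5, the transfer RNA enzyme Alkbh8 and Tet2 and Tet3 did not pass, at -0.39 to 0.49 over both ages.

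With the 12 libraries Phyh showed the largest difference of the 39 genes at both ages, and it fell. It encodes the peroxisomal phytanoyl-CoA hydroxylase that starts the breakdown of phytanic acid, a branched fatty acid, and its loss causes Refsum disease in humans. At 3 weeks Phyh read 9.00, 9.87 and 9.54 in Tfr1-null libraries 2 to 4, against 11.43, 11.46 and 11.49 in the controls, with 11.44 in the library labelled Tfr1-null 1. At 10 weeks Phyh read 10.88, 11.06 and 11.15 in Tfr1-null libraries, against 12.35, 12.51 and 12.42 in controls 2 to 4, with 10.92 in the library labelled control 1. The 2 groups were apart by more than 1 log2 unit at both ages, and each doubtful library fell within the range of the other genotype. Phyh was 3.97-fold lower at 3 weeks (-1.99 ± 0.18, adjusted p = 0.000208) and 2.64-fold lower at 10 weeks (-1.40 ± 0.18, adjusted p = 0.000893). With all 14 libraries the differences were -1.50 and -1.02 and did not pass (adjusted p = 1.00 and 0.263).

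Alkbh7, a mitochondrial member of the AlkB family, fell at 10 weeks. Alkbh7 read 10.58, 10.10 and 10.28 in Tfr1-null libraries at 10 weeks, against 11.60, 10.97 and 11.10 in controls 2 to 4, with 10.23 in the library labelled control 1. The groups did not overlap, and Alkbh7 was 1.87-fold lower (-0.91 ± 0.18, adjusted p = 0.00990). At 3 weeks Alkbh7 differed by -0.11 (adjusted p = 0.962), and the difference between the ages did not pass (-0.80, adjusted p = 0.228). The carnitine synthesis enzymes Bbox1 and Tmlhe, the aspartyl hydroxylase gene Asph and the ribosomal prolyl hydroxylase Ogfod1 differed by -0.13 to 0.54 on their chosen probe sets and did not pass at either age.

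No member passed the test of the difference between ages with either 14 or 12 libraries (limma), where 0% and 0.286% of all genes passed. The 8 genes that passed at 10 weeks alone and Hif1an at 3 weeks alone were therefore not shown to differ between the ages. Because genes of the Y chromosome were read in 1 of 7 libraries at 3 weeks and 7 of 7 at 10 weeks, age and sex cannot be told apart in that test. At an unadjusted p under 0.05 that test gave 3 and 8 members, a cut not counted over all genes. The median spread of replicates over members was 0.157 at 3 weeks and 0.292 at 10 weeks (SD).

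Genes with several probe sets gave a further reading of the same RNA. Of the 39 genes, 12 had 1 probe set, among them P4ha2, Kdm3a, Kdm4b, Alkbh7 and Phyh. The second probe set of Egln1 passed at both ages, with 0.93 at 3 weeks and 0.73 at 10 weeks. A second probe set of Hif1an passed at 3 weeks (1.05), a second of Jmjd6 at 10 weeks (0.46) and a second of Kdm2a at 10 weeks (0.98). The 5 further Kdm2a probe sets gave -0.34 to 0.20 at 10 weeks and did not pass. Of these 5, those at -0.34, 0.05 and -0.16 lay above the 25th percentile of the arrays in 0, 0 and 1 of 14 libraries. The other probe set of Fto, above the 25th percentile of the arrays, gave -0.08 at 10 weeks (adjusted p = 0.697), unlike the 0.87 of the chosen one. Those of Alkbh1 (0.23), Kdm4a (0.20) and Kdm5b (-0.23, 0.57 and 1.15) did not pass at 10 weeks. The Kdm4a one and the -0.23 of Kdm5b lay above that percentile in 4 and 2 of 14 libraries. Such dim probe sets enter the means given next. With the mean of a gene's probe sets, the 10 week differences of Kdm2a (0.27), Kdm5b (0.63), Fto (0.40), Alkbh1 (0.59) and Kdm4a (0.35) did not pass (adjusted p from 0.0533 to 0.192). No other probe set of a called gene passed in the opposite direction. Among genes whose chosen probe set did not pass, another probe set passed for P4ha1 at both ages, as given above, and at 10 weeks for Kdm5a (0.64, adjusted p = 0.00565), Phf8 (0.62, adjusted p = 0.0325) and Asph (0.90, adjusted p = 0.0350), each higher. Which transcripts each probe set detects was not analysed here.

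**Figure D3:**
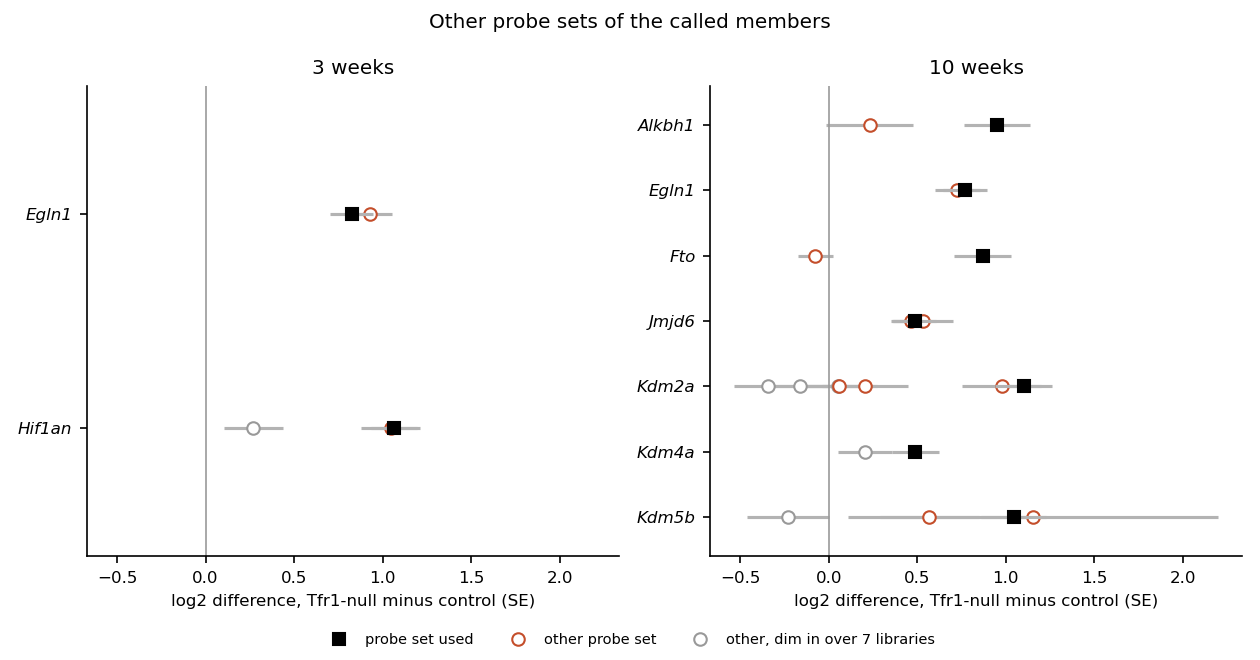
Log2 difference of Tfr1-null minus control (bars, SE) at 3 weeks (left) and 10 weeks (right) for called genes with more than 1 probe set, in the fit to 12 libraries; squares are the chosen probe set and grey circles others under the 25th percentile of the array in over 7 libraries. The open circle of Fto at -0.08 lies apart from its square at 0.87, and both Egln1 symbols lie together.

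Related lists were set beside the members in the fit to 12 libraries, where 1.84% of all genes passed at 3 weeks and 11.1% at 10 weeks. With all 14 libraries Alkbh6 was the only gene of these lists to pass, at 10 weeks. Of 22 other oxygenases of the superfamily, 1 rose at 3 weeks, and 5 rose and 1 fell at 10 weeks (27.3%), with medians of 0.00 and -0.04. Kdm5c, a demethylase of lysine 4 of histone H3, rose at both ages, by 0.65 at 3 weeks (adjusted p = 0.0499, lowest in control 2, the library with Y chromosome signal) and by 0.74 at 10 weeks (adjusted p = 0.00963). Hr, a histone demethylase and corepressor, rose by 0.86 (adjusted p = 0.00739) and Alkbh4, which demethylates actin, by 0.59 (adjusted p = 0.00769), both at 10 weeks. Alkbh6, a member of the AlkB family, fell by 0.90 at 10 weeks (adjusted p = 0.000724) and in the fit to 14 libraries by 0.82 (adjusted p = 0.0346). At 10 weeks Alkbh6 read 9.62, 9.69 and 9.95 in Tfr1-null libraries, against 10.60, 10.63 and 10.74 in controls 2 to 4 and 10.31 in the library labelled control 1, with no overlap.

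Of 18 partners and substrates, which include HIF subunits, collagens and the P4ha partner P4hb, none passed at 3 weeks in the limma fit (0 also at an unadjusted p under 0.05), and 2 rose at 10 weeks (11.1%, the same share as among all genes). Hif1a, the HIF alpha subunit that Egln1 hydroxylates, rose by 0.70 (adjusted p = 0.0413) and Arnt2, a neuronal dimer partner of HIF, by 1.41 (adjusted p = 0.0185), both at 10 weeks. With all 14 libraries neither passed, Hif1a differing by 0.57 (adjusted p = 0.142) and Arnt2 by 1.24 (adjusted p = 0.0636). A further list held 15 enzymes of oxoglutarate, succinate and fumarate, among them the succinate dehydrogenase subunits and fumarase. Of these 15, 0 passed at 3 weeks (4 at an unadjusted p under 0.05) and 2 fell at 10 weeks (13.3%). Ogdh, a subunit of the oxoglutarate dehydrogenase complex that consumes oxoglutarate, fell by 0.71 (adjusted p = 0.00872), after -0.61 at 3 weeks (adjusted p = 0.0506). Idh1, which makes oxoglutarate from isocitrate in the cytosol, fell by 0.62 (adjusted p = 0.0275), after -0.48 at 3 weeks (adjusted p = 0.215). Of 13 flavin-dependent demethylases and methyl writers, 0 passed at 3 weeks (1 at an unadjusted p under 0.05) and 2 rose at 10 weeks (15.4%), the DNA methyltransferases Dnmt1 (0.94, adjusted p = 0.0102) and Dnmt3a (0.78, adjusted p = 0.0242).

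**Figure D4:**
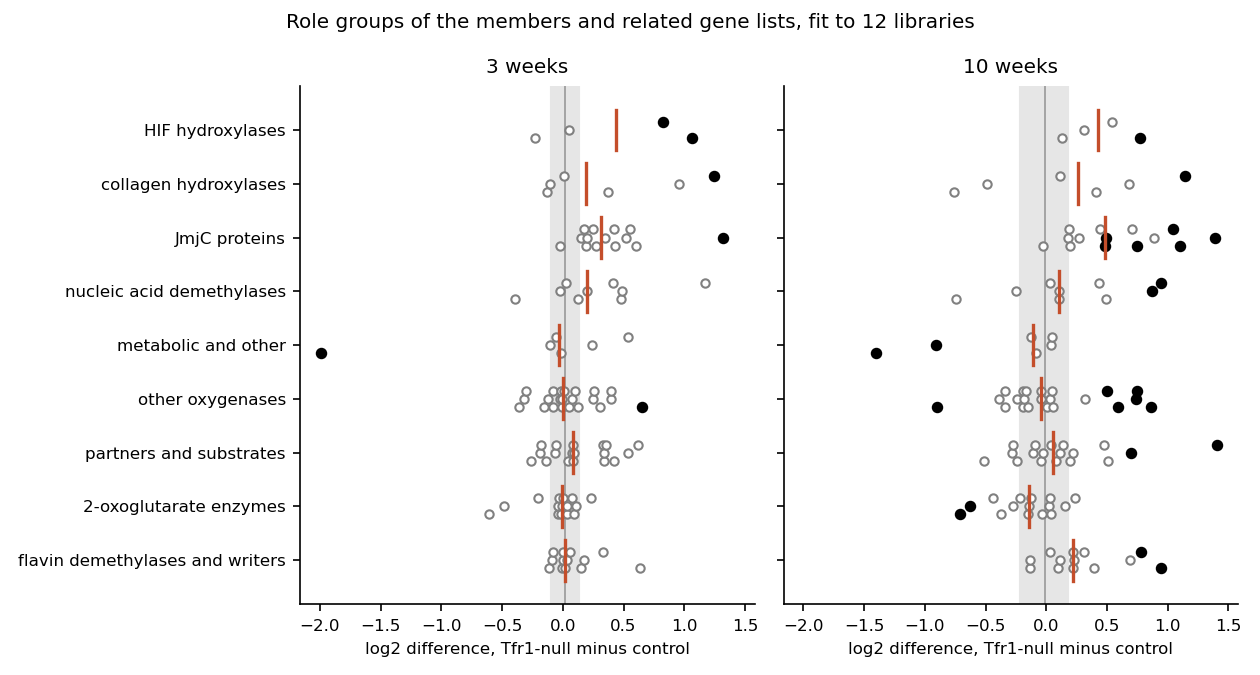
Log2 difference of Tfr1-null minus control for each gene (points, filled where the adjusted p was under 0.05) of the 5 role groups of the 39 dioxygenases (upper rows) and of 4 related lists (lower rows), at 3 weeks (left) and 10 weeks (right) in the fit to 12 libraries; vertical bars are list medians and the grey band spans the quartiles of all genes. The medians of the HIF hydroxylases, 0.44 and 0.42, and of the JmjC proteins, 0.31 and 0.49, lie right of the band at both ages, as do those of the collagen hydroxylases, 0.19 and 0.26. Those of the nucleic acid demethylases (0.20 at 3 weeks) and of the flavin demethylases and writers (0.22 at 10 weeks) do so at a single age.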

How the data were processed

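Affymetrix mouse arrays had been hybridized with product amplified from 50 ng of RNA per library, per the labels' protocols. The authors deposited log2 signals from Partek 6.5 with RMA (robust multi-array averaging), per the submitters' processing notes, and those values were used as deposited. Array medians differ between the ages, and no level was compared across them. Of 45101 probe sets, 34945 carried 1 gene symbol and were no controls, and these covered 18193 genes. Each gene was represented by the probe set whose mean over the arrays was highest.

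Groups followed titles and genotype labels. Differences were tested with limma 3.58.1 in R 4.3.3 (lmFit and eBayes, default settings, 4 group means, 1 spread per gene), with Benjamini-Hochberg adjustment over all genes of a comparison and a threshold of 0.05. Fits used all 14 libraries, and 12 without the 2 of doubtful label. SE is limma's moderated standard error, and ± SE follows log2 differences. The number of arrays limits the precision. The script was tested on simulated data. The members, the related and marker lists and the 2 doubtful libraries were chosen with earlier results of these data known. Values in every library are given for members that passed in any comparison. Of each related list, up to 4 genes that passed with the smallest p per comparison are named. P4ha1, P4ha3, Plod3, Tet1, Kdm4c and the other probe sets of Kdm5a, Phf8 and Asph were singled out after their values were seen. Alternatives were fitting each age alone, array weights, the replicate number as a block, an intensity trend, the mean of a gene's probe sets, other probe set filters, renewed quantile scaling, median centring and leaving out each library. Replicate numbers did not pair libraries: over all genes the deviations of same-numbered libraries correlated at -0.0338 to 0.0880. Promoter sequences come from RefSeq (GRCm38.p6). Genome positions of the probe sets and protein sequences were not used here.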

Additional observations from a re-analysis of the deposited data

Results flagged for a closer look

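Groups of 4 libraries were searched for 1 library far from the other 3, relative to the range of the group (Dixon's 95% critical value). Over the 39 genes and the 2 groups of 4 libraries, 78 in all, 11 stood out, and chance marks about 1 in 20 such groups. Of the 11, 8 were in the 2 libraries of doubtful label. The library labelled Tfr1-null 1 at 3 weeks was low for Egln1 (10.24, against 11.11 to 11.18 in the other 3), P4ha1 (10.29), Jmjd6 (9.66) and Asph (10.67). The library labelled control 1 at 10 weeks was high for Egln1 (11.69), Alkbh3 (10.52) and Tmlhe (7.54) and low for Phyh (10.92, against 12.35 to 12.51). The other 3 were Kdm2b, high in Tfr1-null 2 at 3 weeks (8.71), P4ha3, high in control 2 at 10 weeks (10.55, against 7.62 to 7.71), and Phf8, low in control 3 at 10 weeks (9.42). For Tmlhe the other 3 controls read the same value, 7.52, to all digits in the deposited matrix, so that a gap of 0.02 log2 units stood out.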

How the results depend on the processing

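With 14 libraries, 8 of 39 genes passed at 3 weeks under array weights (3.24% of all genes), which give libraries that stand apart less say. The count was 0 to 2 when each library was left out, the 2 without the library labelled Tfr1-null 1 (0.302% of all genes). At 10 weeks the count was 0 with that age fitted alone and 0 under array weights (0% of all genes in both). It was 0 with the replicate number as a block (0.0165% of all genes) and 0 with the mean of a gene's probe sets (0.473%). When each library was left out it was 0 to 10, the 10 without the library labelled control 1 (10.6% of all genes). With 12 libraries, 9 passed at 3 weeks with that age fitted alone (5.05% of all genes) and 11 under array weights (7.48%). When each library was left out, 4 to 6 passed at 3 weeks (1.13% to 2.26% of all genes). At 10 weeks 2 (P4ha2 and Phyh) passed with that age fitted alone (1.34% of all genes) and 8 under array weights (4.4%). When each library was left out, 10 to 13 passed at 10 weeks (7.83% to 11.7% of all genes). With the replicate block the 12 libraries gave 4 at 3 weeks (1.29% of all genes), Kdm3a being lost (1.23, adjusted p = 0.104). At 10 weeks they gave 10 (5.92% of all genes), Kdm4a and Jmjd6 being lost. For the change of the difference with age the count was 0 in every leave-one-out fit of either set. Over 21 alternatives to the fit of 12 libraries, Egln1, Hif1an, P4ha2 and Phyh passed in 21 at 3 weeks and Kdm3a in 17. At 10 weeks P4ha2 and Phyh passed in 21, Egln1, Kdm3a and Alkbh7 in 20, Kdm2a, Kdm4b, Kdm5b and Fto in 19, Alkbh1 in 18, Jmjd6 in 14 and Kdm4a in 8. The cause of these shifts was not tested. No named gene changed its direction where it had passed.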

Other observations

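The letter matches of the HIF core motif varied among genes with like changes. Hif1an, which rose at 3 weeks, held 0 matches in its window, while Plod3, which did not pass at either age, held 4. P4ha1 held 3 and its second probe set passed at both ages. Alkbh7, which fell at 10 weeks, held 3, of which 2 are both strands of 1 palindrome. Jmjd6 and Kdm5b, which rose at 10 weeks, held 2 each, and Fto and Alkbh1, which also rose then, held 0. These are descriptions of windows of 250 bases and bear on no factor.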
